A study of Mus musculus with 4 samples.

Results

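Genes that mark white and brown fat cells were followed through arrays of sorted embryonic epidermis. The set held 10 genes chosen by symbol: Adipoq, Car3, Cidec, Ucp1, Fabp4, Cd36, Lpl, Pparg, Cfd and Plin1. They were chosen with earlier results of these data known, so counts of them set beside all genes are descriptions and not tests. Every probe set annotated to exactly 1 of these symbols was taken, dim ones included, which gave 17 probe sets for 8 of the 10 genes, out of 45037 probe sets and 18193 genes in all. Cfd and Plin1 had no probe set under a single symbol in the platform annotation and are not analysed here. The brightest probe set by its mean over the 4 arrays stands for a gene, and the others are given beside it.

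The cells were basal cells of the epidermis, the layer that holds its progenitors, purified by flow cytometry from skin of mouse embryos at day 16. There were 2 arrays of embryos in which Ezh2 was conditionally deleted (Ezh2cKO) and 2 of wild-type (WT) embryos, all of a mixed C57 and CD1 background, and the arrays of each genotype were numbered replicate 1 and 2. Ezh2 is the methyltransferase of Polycomb repressive complex 2, and the study asked what epidermal progenitors express once Polycomb silencing is lost. The driver of the conditional deletion is not given in the sources used here, and no label says that the replicates came from separate animals, so a p-value here covers only how much these arrays vary, which may be technical.

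White adipocytes store triglyceride in a lipid droplet and secrete hormones, and brown adipocytes burn fatty acids for heat. Pparg is the nuclear receptor that drives the differentiation of both and directly activates many of the genes described here. Skin carries white fat under and within the dermis, which forms around birth in the mouse and is not part of the epidermis. Several of the genes are not particular to fat: capillary endothelium makes Fabp4 and Cd36, skeletal muscle makes Car3 and Lpl, macrophages make Cd36 and Pparg, and sebocytes make Pparg.

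Each probe set had a MAS5 signal intensity on each array, and differences are given on the scale log2(signal + 16). The median signal over all probe sets was 87.4 on Ezh2cKO replicate 1, 148 on Ezh2cKO replicate 2, 91.6 on WT replicate 1 and 137 on WT replicate 2, so arrays with the same number were closest in this median. Ezh2 signal was 661 and 1308 on Ezh2cKO replicates 1 and 2, against 3336 and 3603 on WT replicates 1 and 2, in the order the labels give. The basal keratin Krt14 read 16592 and 16408 on the Ezh2cKO arrays, against 15981 and 14501 on the WT arrays. Ezh2cKO replicate 1 stood apart in Xist, the X-inactivation RNA, with a signal of 86.9, against 11333 on Ezh2cKO replicate 2, 8669 on WT replicate 1 and 10527 on WT replicate 2. The Y-linked gene Eif2s3y read 861 and 404 on Ezh2cKO replicates 1 and 2, against 222 and 535 on WT replicates 1 and 2, and Kdm5d read 494 and 231 on the Ezh2cKO arrays, against 118 and 287 on the WT arrays. Both were thus highest on Ezh2cKO replicate 1 and lowest on WT replicate 1, the pair on which the genotype differences below mainly rest. The part of embryo sex in those differences was not tested.

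Adiponectin and carbonic anhydrase 3 had the largest differences between genotypes among the 8 genes, and in both the difference was carried mainly by the arrays numbered 1. Adipoq (chr16:23146536-23157968 of GRCm38.p6) encodes adiponectin, a hormone secreted by fat cells. Its signal was 33.8 and 78.5 on Ezh2cKO replicates 1 and 2, against 1056 and 119.9 on WT replicates 1 and 2. WT replicate 1 was far above the other 3 arrays, and the Ezh2cKO arrays did not overlap with the WT arrays. On those other 3 arrays Adipoq lay below the median over all probe sets, which was 87.4 and 148 on Ezh2cKO replicates 1 and 2 and 137 on WT replicate 2. Detection calls were not used, so these 3 values may lie near background. The means were 56.2 ± 31.6 in Ezh2cKO and 588 ± 662 in WT (SD, n = 2 each), so the SD of the WT arrays was larger than their mean. The log2 difference of Ezh2cKO minus WT was -2.48 with a standard error of 0.98 and a 95% interval from -4.88 to -0.07 by limma. Within number 1 the difference was -4.43, with an Ezh2cKO signal 0.0320 times the WT signal. Within number 2 the difference was -0.52, with an Ezh2cKO signal 0.655 times the WT signal.

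Car3 (chr3:14863538-14872381) encodes a cytosolic carbonic anhydrase that is abundant in fat cells and slow skeletal muscle. Its signal was 220.4 and 979.6 on Ezh2cKO replicates 1 and 2, against 7438 and 1891 on WT replicates 1 and 2. Both Ezh2cKO arrays were below both WT arrays, and the 4 arrays spread over a wide range within each genotype as well. The means were 600.0 ± 537 in Ezh2cKO and 4664 ± 3923 in WT (SD, n = 2 each), a log2 difference of -2.96 with a standard error of 0.84 and a 95% interval from -5.01 to -0.90 by limma. Within number 1 the log2 difference was -4.98, and within number 2 it was -0.94.

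The other 3 probe sets of Car3 also had their highest signal on WT replicate 1. The probe set 1460256_at read 95.1 and 276 on the Ezh2cKO arrays, against 1671 and 379 on the WT arrays. The probe set 1430584_s_at read 22.3 and 47.6 on the Ezh2cKO arrays, against 109 and 42.8 on the WT arrays, and its genotypes overlapped. The probe set 1453588_at read 4.69 and 2.26 on the Ezh2cKO arrays, against 36.6 and 12.5 on the WT arrays. The log2 differences of these 3 probe sets were -2.18, -0.80 and -0.99, and the pseudocount of 16 shrinks those of the last 2, whose signals were low.

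**Figure D1:**
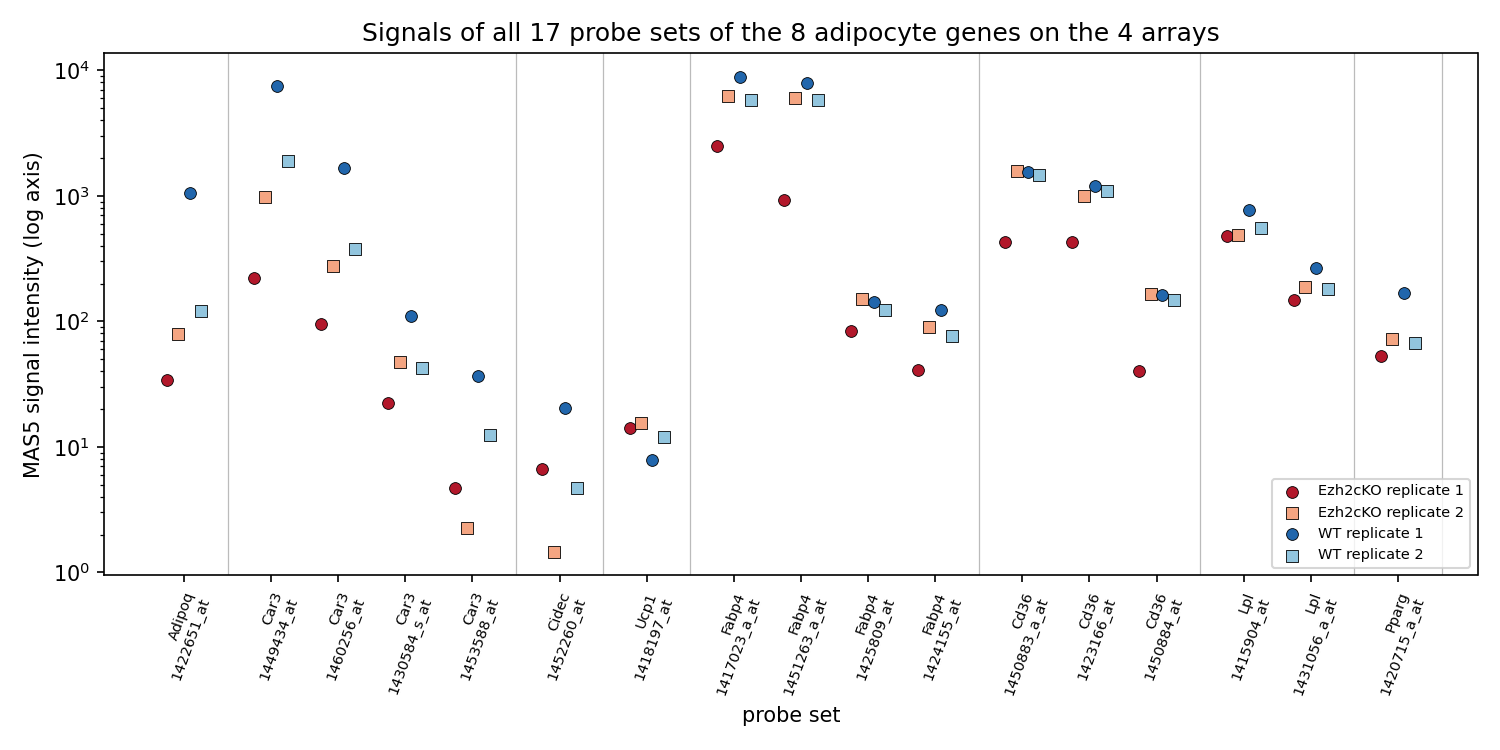
MAS5 signal intensity (log axis) of each of the 17 probe sets of the 8 measured adipocyte genes, with 1 point per array: Ezh2cKO replicates 1 and 2, then WT replicates 1 and 2. WT replicate 1 is the highest array for all 4 Car3 probe sets and for Adipoq at 1056, while Ezh2cKO replicate 1 is the lowest array for all Fabp4 and Cd36 probe sets.

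RefSeq promoter windows, from 250 bases before to 50 bases after an annotated start, were available for 7 of the 10 genes. Those of Adipoq, Cd36 and Ucp1 are printed because these genes differed in their pattern over the arrays: Adipoq was high on WT replicate 1, Cd36 was low on Ezh2cKO replicate 1, and Ucp1 was dim on every array. They lie in GRCm38.p6 at chr16:23146286-23146585 on the plus strand for Adipoq, chr5:17835847-17836146 on the minus strand for Cd36 and chr8:83290098-83290397 on the plus strand for Ucp1, and each is written 5′ to 3′ on the gene's strand. The Cd36 window lies inside the span of the gene given below, at an internal start, and not at the gene's outer end. Capitals mark the nuclear receptor half-site AGGTCA or its complement TGACCT, and the CCAAT box or its complement ATTGG.
Adipoq: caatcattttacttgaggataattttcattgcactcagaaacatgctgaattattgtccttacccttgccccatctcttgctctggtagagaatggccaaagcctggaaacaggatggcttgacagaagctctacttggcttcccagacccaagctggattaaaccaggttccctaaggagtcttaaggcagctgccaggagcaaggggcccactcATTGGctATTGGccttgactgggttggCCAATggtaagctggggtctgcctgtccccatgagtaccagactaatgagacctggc
Cd36: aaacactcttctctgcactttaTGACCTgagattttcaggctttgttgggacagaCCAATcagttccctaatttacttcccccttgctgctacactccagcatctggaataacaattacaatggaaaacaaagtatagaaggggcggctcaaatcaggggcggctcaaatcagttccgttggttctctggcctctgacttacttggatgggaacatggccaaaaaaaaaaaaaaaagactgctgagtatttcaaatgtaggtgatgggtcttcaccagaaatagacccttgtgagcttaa
Ucp1: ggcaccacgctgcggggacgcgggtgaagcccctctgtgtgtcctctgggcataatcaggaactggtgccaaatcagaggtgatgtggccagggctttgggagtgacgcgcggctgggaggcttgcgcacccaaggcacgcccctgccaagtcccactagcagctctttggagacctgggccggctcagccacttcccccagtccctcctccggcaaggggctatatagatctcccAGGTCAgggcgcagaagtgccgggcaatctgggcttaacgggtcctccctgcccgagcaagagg

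The Adipoq window held 3 CCAAT boxes, at -34, -27 and -7 from the start that defines the window, the first 2 on the minus strand. Counted in the same way, the Cd36 window held a half-site at -228 on the minus strand and a CCAAT box at -195, and the Ucp1 window held a half-site at -14. The motifs were searched on both strands and do not overlap one another in these 3 windows. Of all 32851 promoter windows in the table, 16.3% held the half-site and 37.4% held a CCAAT box, so neither motif is rare, and a match describes the letters only. The C/EBP palindrome TTGCNNAA, present in 10.8% of all windows, was found in windows of Cidec, Pparg and Plin1 and in none of the 3 printed. The TATA box TATAAA, present in 13.6% of all windows, was found in 1 of the Pparg windows and in none of the 3 printed.

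Cidec and Ucp1, which are among the genes most closely tied to fat cells, had low signals on every array. Cidec (chr6:113424634-113435760) encodes a protein that enlarges lipid droplets. It read 6.71 and 1.46 on the Ezh2cKO arrays, against 20.3 and 4.69 on the WT arrays, and the genotypes overlapped. Its log2 difference was -0.46, with a 95% interval from -1.26 to 0.34 by limma.

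Ucp1 (chr8:83290348-83298456) encodes the mitochondrial uncoupling protein that produces heat in brown fat. It read 14.0 and 15.5 on the Ezh2cKO arrays, against 7.81 and 12.0 on the WT arrays. It was the 1 measured gene with both Ezh2cKO arrays above both WT arrays, by a log2 difference of 0.25 with a 95% interval from -0.38 to 0.89 by limma. Both genes lay on all 4 arrays below 73.2, the mean signal that bounds the brighter 60% of probe sets, and 6 of the 8 genes and 13 of the 17 probe sets had a mean above it. MAS5 detection calls were not part of the analysis, and Cidec and Ucp1 may therefore be at background on all 4 arrays. The brown adipocyte label thus has no clear Ucp1 signal behind it on any array.

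The lipid-handling genes Fabp4 and Cd36 had their lowest signal on Ezh2cKO replicate 1, and within number 2 the genotypes were close. Fabp4 (chr3:10204342-10208616) encodes the fatty acid carrier of adipocyte and endothelial cytoplasm. It read 2515 and 6242 on Ezh2cKO replicates 1 and 2, against 8883 and 5837 on WT replicates 1 and 2, and the genotypes overlapped. The means were 4379 ± 2635 in Ezh2cKO and 7360.4 ± 2154 in WT (SD, n = 2 each). Its log2 difference was -0.86 with a standard error of 0.44 and a 95% interval from -1.93 to 0.22 by limma, with -1.81 within number 1 and 0.10 within number 2.

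Another probe set of Fabp4, 1451263_a_at, read 927 and 6062 on the Ezh2cKO arrays, against 7945 and 5822 on the WT arrays. A further one, 1425809_at, read 83.9 and 150.6 on the Ezh2cKO arrays, against 143 and 123 on the WT arrays. The last, 1424155_at, read 41.2 and 90.1 on the Ezh2cKO arrays, against 122 and 75.9 on the WT arrays. On all 4 Fabp4 probe sets the lowest array was Ezh2cKO replicate 1, and Ezh2cKO replicate 2 was above WT replicate 2. The related carrier Fabp5 of keratinocytes, listed among the basal genes, read 19954 and 17396 on the Ezh2cKO arrays, against 19256 and 16600 on the WT arrays, a log2 difference of 0.06.

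Cd36 (chr5:17781690-17888959) encodes a receptor that takes up long-chain fatty acids in fat cells, capillaries and macrophages. It read 429.7 and 1566 on Ezh2cKO replicates 1 and 2, against 1542 and 1465 on WT replicates 1 and 2. Only Ezh2cKO replicate 1 was low, and Ezh2cKO replicate 2 was the highest of the 4 arrays, so the genotypes overlapped. The means were 998 ± 803.5 in Ezh2cKO and 1504 ± 54.7 in WT (SD, n = 2 each), and the log2 difference was -0.86 with a 95% interval from -2.21 to 0.50 by limma. The probe set 1423166_at read 427 and 992 on the Ezh2cKO arrays, against 1194 and 1086 on the WT arrays, with no overlap. The probe set 1450884_at read 40.2 and 165 on the Ezh2cKO arrays, against 162 and 147 on the WT arrays, with overlap. The 3 probe sets thus shared the low value on Ezh2cKO replicate 1 and disagreed on whether the genotypes overlapped.

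Lpl (chr8:68880555-68906932) encodes lipoprotein lipase, which releases fatty acids from circulating triglyceride at the capillary wall. It read 482.4 and 482.9 on Ezh2cKO replicates 1 and 2, against 775 and 558 on WT replicates 1 and 2. Both Ezh2cKO arrays were below both WT arrays, with means of 483 ± 0.397 in Ezh2cKO and 667 ± 153.5 in WT (SD, n = 2 each). The log2 difference was -0.43 with a 95% interval from -1.04 to 0.17 by limma. Its other probe set, 1431056_a_at, read 149 and 186 on the Ezh2cKO arrays, against 267 and 179.6 on the WT arrays, with overlap.

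Pparg (chr6:115360879-115490404), the receptor that drives fat cell differentiation, read 52.9 and 72.7 on Ezh2cKO replicates 1 and 2, against 169 and 67.4 on WT replicates 1 and 2. WT replicate 1 was high and the other 3 arrays were close to one another, so the genotypes overlapped. On those 3 arrays Pparg lay below the median over all probe sets. Those medians were 87.4 and 148 on Ezh2cKO replicates 1 and 2, and 137 on WT replicate 2. Detection calls were not used, so these 3 values may lie near background. The log2 difference was -0.67 with a 95% interval from -2.11 to 0.77 by limma, with -1.43 within number 1 and 0.09 within number 2.

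Between genotypes, 0 of the 17 probe sets of the 8 genes passed the threshold, an adjusted p under 0.05 over all probe sets, where 0.0% of all probe sets passed. The adjusted p by limma was 0.999993 for each of the 17, as it was for the deleted gene Ezh2, at a log2 difference of -1.88. With Ezh2 itself not called, the lack of calls does not show that the 17 were unchanged. Without adjustment, limma placed 329 probe sets higher and 175 lower in Ezh2cKO below 0.05, out of 45037 on the whole array. Together that is fewer than a cut of 0.05 would pass if no probe set differed. The brightest probe sets of Car3 and Adipoq were among the 175. Of the 8 genes, 3 were lower in Ezh2cKO with no overlap (Car3, Adipoq and Lpl), where 9.14% of all genes were, and 1 was higher with no overlap (Ucp1), where 9.9% were. The median log2 difference of the 8 genes was -0.76, against 0.00 for all genes.

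The median of the 8 genes rested on the arrays numbered 1. Within number 1 it was -1.62, with 7 of 8 genes lower in Ezh2cKO, and within number 2 it was -0.06, with 4 of 8 lower. In Ezh2cKO replicate 1 against WT replicate 1, 5 of the 8 genes were at least 2-fold lower (Car3, Adipoq, Fabp4, Cd36 and Pparg), where 2.01% of all genes were. In Ezh2cKO replicate 2 against WT replicate 2, 0 of the 8 were at least 2-fold lower, where 1.08% of all genes were. These are single pairs of arrays with no test, on the log2(signal + 16) scale, and within number 2 the gene nearest to the 2-fold mark was Car3.

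Leaving out 1 array at a time, a step added after the data were seen, changed how many of the 8 genes were lower in Ezh2cKO with no overlap. Without Ezh2cKO replicate 1 there were 4 (Car3, Adipoq, Lpl and Cidec), where 30.5% of all genes were, and without Ezh2cKO replicate 2 there were 6, where 35.7% were. Without WT replicate 1 there were 3 (Car3, Adipoq and Lpl), where 27.6% of all genes were, and without WT replicate 2 there were 6, where 23.8% were. Car3, Adipoq and Lpl were in the count each time, as they had to be, since leaving out an array cannot undo a separation. The count could therefore only stay or rise. The Car3 log2 difference was -1.92 when Ezh2cKO replicate 1 was left out and -4.00 when Ezh2cKO replicate 2 was, against -1.97 when WT replicate 1 was left out and -3.94 when WT replicate 2 was. That of Adipoq was -2.01 when Ezh2cKO replicate 1 was left out and -2.94 when Ezh2cKO replicate 2 was, against -0.99 when WT replicate 1 was left out and -3.97 when WT replicate 2 was. The direction of Car3 and Adipoq could not change either, for the same reason, so that it held is no check on it. Only the size of the difference could vary, and it depended on which array of either genotype was left out.

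**Figure D2:**
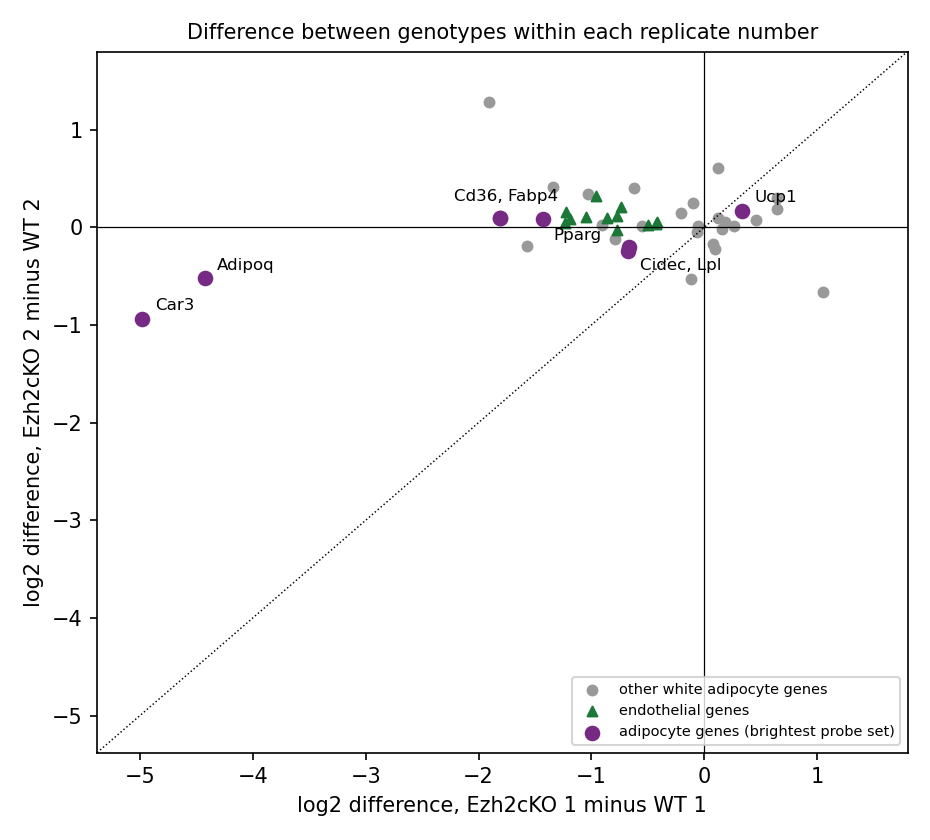
Log2 difference of Ezh2cKO minus WT within number 1 (horizontal axis) and within number 2 (vertical axis), 1 point per gene by its brightest probe set, for the adipocyte genes, other white adipocyte genes and endothelial genes; the dotted line marks equal differences. Car3 (-4.98 and -0.94) and Adipoq (-4.43 and -0.52) lie far to the left, and Fabp4 and Cd36 lie at -1.81 within number 1 and 0.10 within number 2.

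Between the replicate numbers, 0 of the 17 probe sets passed the threshold in either direction, where on the arrays numbered 2 the share of all probe sets called was 11.3% in the higher and 3.91% in the lower direction. By limma the adjusted p of the brightest probe sets lay between 0.181 for Cidec and 0.984 for Car3. Of the 8 genes, 0 were higher with no overlap between the numbers, where 35.2% of all genes were, and 1 was lower, where 28.3% were. That gene was Cidec, with a log2 difference of -0.60 between arrays numbered 2 and arrays numbered 1. The numbers thus separated fewer of these 8 genes than of genes at large, by counts that were not tested.

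The small differences between numbers hid opposite ones within the genotypes. Replicate 2 minus replicate 1 of Car3 was 2.07 in Ezh2cKO and -1.97 in WT on the log2 scale, which left 0.05 with a standard error of 1.53. For Adipoq it was 0.92 in Ezh2cKO and -2.98 in WT. For Fabp4 it was 1.31 in Ezh2cKO and -0.60 in WT, and for Pparg 0.36 in Ezh2cKO and -1.15 in WT. Cd36 differed mostly in Ezh2cKO, by 1.83, against -0.07 in WT. The median of the 8 genes was 0.64 in Ezh2cKO and -0.71 in WT, where that of all genes was 0.06 and 0.03.

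On Ezh2cKO replicate 2, 3 of the 8 genes were at least 2-fold higher than on Ezh2cKO replicate 1 (Car3, Fabp4 and Cd36), where 8.74% of all genes were. On WT replicate 2, 3 of the 8 were at least 2-fold lower than on WT replicate 1 (Car3, Adipoq and Pparg), where 1.56% of all genes were. Over the 4 arrays, 6 of the 8 genes had their lowest signal on Ezh2cKO replicate 1, against 31.8% of all genes, and 6 had their highest on WT replicate 1, against 19.5% of all genes. The 8 genes were not taken as independent of one another and were chosen with earlier results of these data known. Which cells made them here was not tested, and these counts are given as descriptions.

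**Figure D3:**
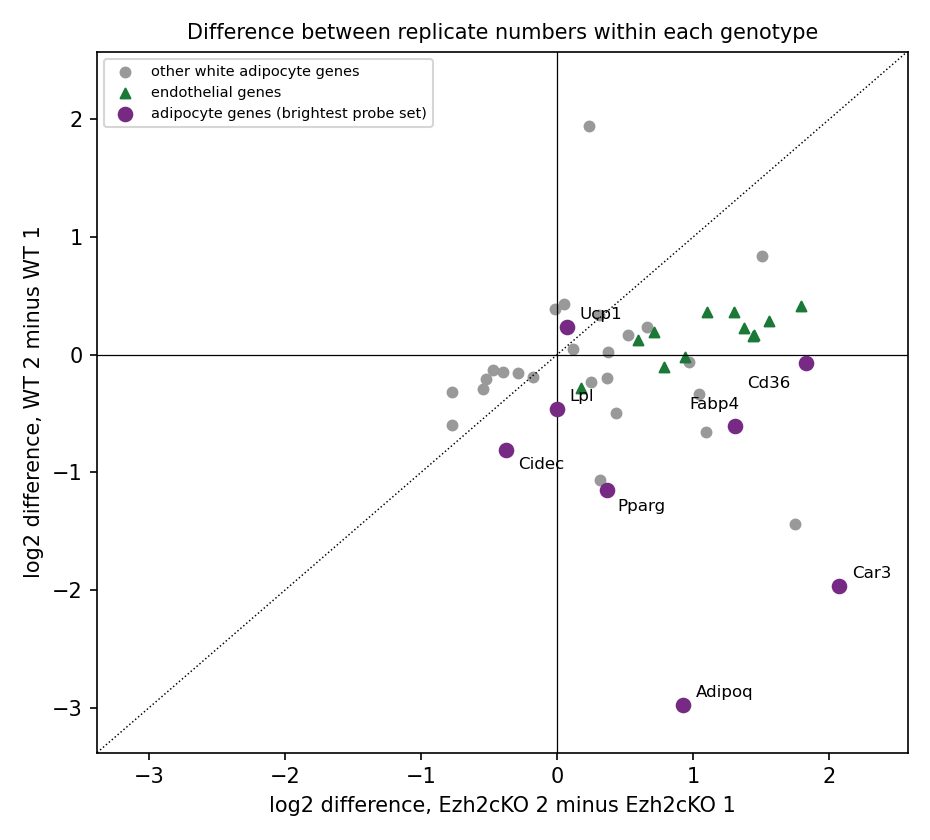
Log2 difference of replicate 2 minus replicate 1 in Ezh2cKO (horizontal axis) and in WT (vertical axis), 1 point per gene by its brightest probe set, for the adipocyte genes, other white adipocyte genes and endothelial genes; the dotted line marks equal differences. Car3 (2.07 in Ezh2cKO and -1.97 in WT) lies below the line and to the right of 0, and endothelial genes lie to the right of 0 near a WT difference of 0.

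Other genes of fat cells had a median difference near 0 between genotypes. Of 27 other white adipocyte genes 25 were measured, and their median log2 difference between genotypes was -0.05, with -0.06 within number 1 and 0.02 within number 2. With no overlap, 3 were higher in Ezh2cKO (Agpat2, Slc2a4 and Nnat) and 3 lower (Retn, Gpd1 and Pck1), 12% of the list each, where 9.9% and 9.14% of all genes were. Between genotypes 0 passed the threshold. Between the numbers Lpin1 passed the threshold as higher on the arrays numbered 2 and Plin2 as lower, where 5.94% of all genes passed as higher and 6.61% as lower. The 4 genes with the highest mean signal were Cav1, Fasn, Mgll and Bscl2, all genes that other cells also use. The summed signal of the 25 genes was 23589 and 22969 on the Ezh2cKO arrays, against 23770 and 22627 on the WT arrays. Cav1 alone read 11028 and 11967 on the Ezh2cKO arrays, against 11458 and 11819 on the WT arrays. The sum therefore says little of the dimmer genes.

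Within number 1, 4 of these 25 genes were at least 2-fold lower in Ezh2cKO, where 2.01% of all genes were. Within number 2, 0 were, against 1.08% of all genes. The 4 genes are named after their values were seen. Gpd1, glycerol-3-phosphate dehydrogenase of triglyceride synthesis, read 96.4 and 124 on the Ezh2cKO arrays, against 319 and 144 on the WT arrays, with no overlap. Plin4, a lipid droplet coat protein, read 11.7 and 76.9 on the Ezh2cKO arrays, against 87.9 and 22.3 on the WT arrays. Rbp4, a retinol carrier, read 41.7 and 107 on the Ezh2cKO arrays, against 130 and 76.3 on the WT arrays, and the genotypes overlapped for it as for Plin4. Aqp7, a glycerol channel, read 9.20 and 35.8 on the Ezh2cKO arrays, against 35.5 and 24.9 on the WT arrays. Gpd1, Plin4 and Rbp4 were highest on WT replicate 1, and all 4 genes were lowest on Ezh2cKO replicate 1.

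Of 18 other brown adipocyte genes 16 were measured, and their median log2 difference between genotypes was -0.06, with -0.16 within number 1 and 0.18 within number 2. With no overlap, Ppara was higher and Lhx8 lower in Ezh2cKO, 6.25% of the list each, where 9.9% and 9.14% of all genes were. Between the numbers 2 passed the threshold as higher on the arrays numbered 2, Zic1 and Ebf2, and 2 as lower, Cidea and Acot2. Of all genes, 5.94% passed as higher and 6.61% as lower. Cidea, a lipid droplet protein of brown fat that sebocytes also make, read 11.9 on Ezh2cKO and 11.0 on WT replicate 2, against 62.7 on both arrays numbered 1 (adjusted p = 0.0189 by limma). Its signal followed the number and not the genotype.

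All 19 regulators of fat cell formation and preadipocyte genes were measured, with a median log2 difference between genotypes of -0.08. By genotype 0 were separated in either direction, where 9.9% of all genes were higher and 9.14% lower with no overlap. Between the numbers 3 passed the threshold as higher on the arrays numbered 2 (Cebpd, Ebf1 and Dlk1) and 3 as lower (Cebpa, Srebf1 and Rxra), against the shares of 5.94% and 6.61% over all genes. Cebpd, an early transcription factor of adipogenesis that stress also induces, read 3463 on Ezh2cKO and 3292 on WT replicate 2, against 509 on Ezh2cKO and 575 on WT replicate 1 (adjusted p = 0.00797 by limma). Cebpa, the factor that acts with Pparg in late adipogenesis and is also made by keratinocytes, read 2133 on Ezh2cKO and 2415 on WT replicate 2, against 3367 on Ezh2cKO and 3864 on WT replicate 1 (adjusted p = 0.0226 by limma). Both followed the replicate number in both genotypes. Of 14 genes of fatty acid and lipid uptake 12 were measured, with a median log2 difference between genotypes of -0.06. With no overlap, 0 were higher and 1 lower in Ezh2cKO, against the same shares of 9.9% and 9.14% over all genes.

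Endothelial markers shared part of the pattern, a low value on Ezh2cKO replicate 1. All 12 endothelial genes were lowest on Ezh2cKO replicate 1, where 31.8% of all genes were. Of the 12, 10 were highest on Ezh2cKO replicate 2, where 5606 of all 18193 genes were. The summed signal of the 12 endothelial genes was 8134 and 16744 on the Ezh2cKO arrays, against 14360 and 15750.5 on the WT arrays. Cdh5, the endothelial cadherin, read 791 and 2180 on the Ezh2cKO arrays, against 1881 and 2116 on the WT arrays. Gpihbp1, which anchors lipoprotein lipase on capillaries, read 885 and 1714 on the Ezh2cKO arrays, against 1623 and 1602 on the WT arrays. Fabp4 and Cd36 were lowest on the same array as the endothelial markers, as were Car3, Adipoq, Pparg and, by a small margin, Lpl. From WT replicate 1 to WT replicate 2, Fabp4 fell from 8883 to 5837, while the endothelial sum rose. The part of endothelial RNA in the values of these genes was not tested. In bulk RNA, fewer cells of a type and less RNA per cell cannot be told apart.

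Marker sums of other cell types are given beside these values, and a sum is set mostly by its brightest genes. The summed signal of 16 skeletal muscle genes was 2447 and 2412 on the Ezh2cKO arrays, against 1983 and 2391 on the WT arrays, with the lowest sum on WT replicate 1. That of 12 macrophage genes was 1241 and 1511 on the Ezh2cKO arrays, against 1317 and 1417 on the WT arrays. Dermal fibroblast genes summed to 65417 and 76040 on the Ezh2cKO arrays, against 65709 and 72767 on the WT arrays, and pericyte and smooth muscle genes to 13426 and 25123 on the Ezh2cKO arrays, against 14306 and 25851 on the WT arrays. By number, 5 of the 11 fibroblast genes passed the threshold as higher on the arrays numbered 2. So did 7 of the 9 pericyte and smooth muscle genes, where 5.94% of all genes did. The 7 measured sebocyte genes, Pparg among them, summed to 2880 and 1805 on the Ezh2cKO arrays, against 2542 and 1281 on the WT arrays.

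Melanocyte genes summed to 1789 and 1717 on the Ezh2cKO arrays, against 2431 and 1714 on the WT arrays, with WT replicate 1 the highest. Of the 8 melanocyte genes, 5 were highest there, where 19.5% of all genes were. The part of these cell types in the values of Car3, Adipoq and Pparg was not tested. Erythroid genes summed to 351 and 507 on the Ezh2cKO arrays, against 434 and 538 on the WT arrays, and basal epidermal genes to 108374 and 102236 on the Ezh2cKO arrays, against 114953 and 99709 on the WT arrays. The summed signal of the 8 adipocyte genes was 3755 and 9439 on the Ezh2cKO arrays, against 19893 and 9955 on the WT arrays.

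**Figure D4:**
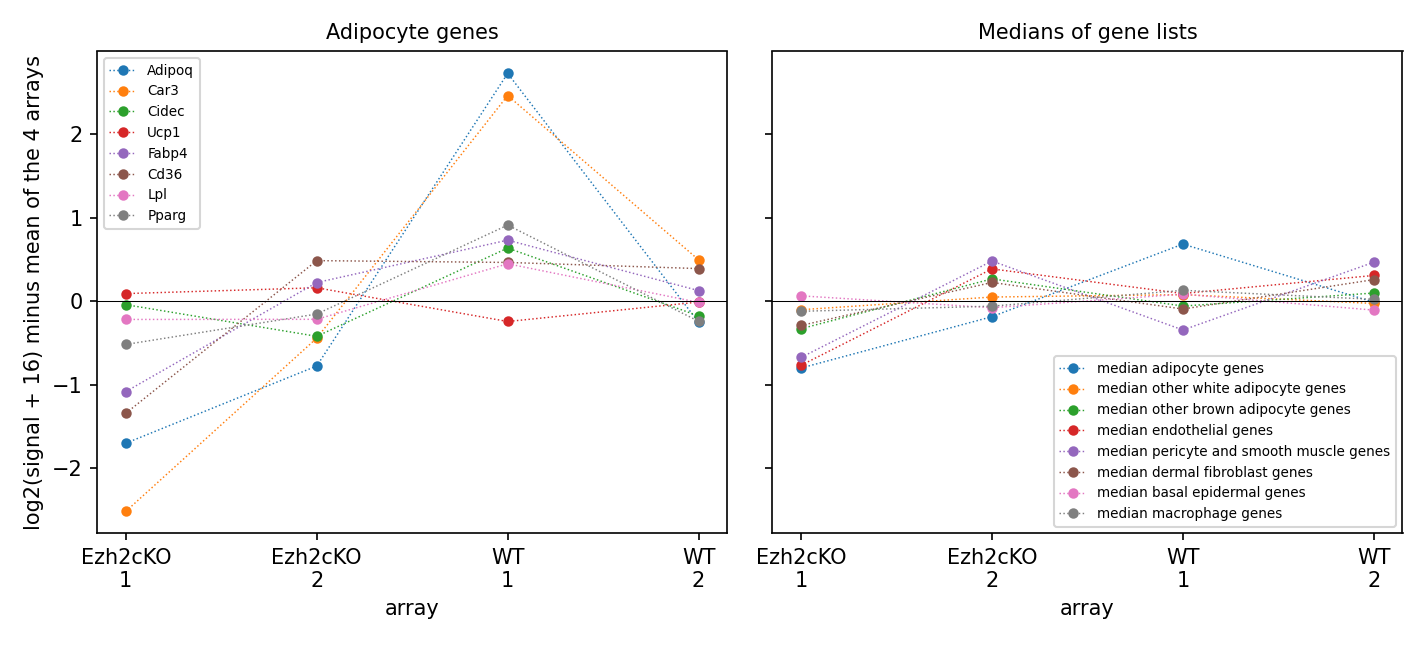
Deviation of log2(signal + 16) from its mean over the 4 arrays, 1 point per array, for each of the 8 adipocyte genes (left) and for the median of gene lists (right); dotted lines only join points of 1 gene or list. Adipoq and Car3 peak on WT replicate 1, and the endothelial median is lowest on Ezh2cKO replicate 1, as are Car3, Adipoq, Fabp4, Lpl, Cd36 and Pparg.

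The 8 genes varied to different degrees over the 4 arrays. The SD on the log2 scale was 2.07 for Car3, 1.91 for Adipoq, 0.895 for Cd36, 0.769 for Fabp4, 0.627 for Pparg, 0.453 for Cidec, 0.314 for Lpl and 0.176 for Ucp1. Among 20923 probe sets with a mean signal of at least 100, with the 8 genes themselves and sex genes left out, the gene nearest to the pattern of Car3 was Khdrbs1, an RNA-binding protein, at a root mean square difference of 0.739. Its probe set read 490 and 1438 on the Ezh2cKO arrays, against 4052 and 1715 on the WT arrays. Ezh2 itself came next at 0.992, followed by Ctrb1 at 0.998, Uqcr10 at 1.03 and a probe set of Gpd1 at 1.03. These matches were loose: Ezh2 read 3336 and 3603 on the WT arrays, where Car3 read 7438 and 1891. Ctrb1 reached the mean of 100 only through WT replicate 1, where it read 367. The median pattern of the 8 genes had a smaller range, from -0.80 to 0.68, against -2.52 to 2.46 for Car3, which leaves less room to differ. It was met more closely, by Chst7 at 0.136, Pcdh12 at 0.137, Car4 at 0.145, Mbp at 0.147 and Cinp at 0.158. With 4 arrays, a close match over so many candidates is a description of shape alone.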

How the data were processed

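The 4 arrays measured biotin-labelled RNA, and each was mapped to its genotype and replicate number from its title. The deposited values are intensities on a linear scale, made by the authors with MAS5, per the submitters' processing notes, which give no version. Trimmed by 2% at each end, every array had a mean of 500.0, and the authors' scaling was kept. Of 45101 probe sets, 64 controls were left out. Of the rest 34945 had 1 gene symbol, 932 several and 9160 none listed, and 34741 were matched to RefSeq (GRCm38.p6), which also gave gene positions and promoter sequences.

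Values were taken as log2(signal + 16) with no filter on dim probe sets, and genotypes (Ezh2cKO minus WT) and numbers (2 minus 1) were each fitted with limma 3.58.1 in R 4.3.3 (eBayes with an intensity trend, 2 residual degrees of freedom), with Benjamini-Hochberg adjustment over 45037 probe sets and a threshold of 0.05. The fit was tested on simulated data with independent noise and no difference between the numbers. That setting is easier than these arrays, so it does not show what the fit can call here. Groups were said not to overlap when both arrays of one lay on the same side of both of the other. The genes and lists were chosen with earlier results of these data known. The rule for naming took the members, Ezh2, the 4 brightest genes of each list and the 5 nearest in pattern. For most lists the text gives only some or none of the 4 brightest. Others are named after their values were seen, among them Cidea, Cebpa, Cebpd, Xist and the list genes given as separated or past the threshold. The number of arrays limits the precision. Alternatives were pseudocounts of 1 and 64, the brighter 60% and 40% of probe sets, quantile and common-median scaling, no trend, the replicate number as a block, genotype as a term, all probe sets of a gene averaged, an adjusted p of 0.1 and leaving out each array.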

Additional observations from a re-analysis of the deposited data

Results flagged for a closer look

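The difference between replicate 2 and replicate 1 of Car3 ran in opposite directions in the genotypes. It was 2.07 on the log2 scale in Ezh2cKO, with signals of 979.6 on replicate 2 and 220.4 on replicate 1, and -1.97 in WT, with 1891 on replicate 2 and 7438 on replicate 1. The difference between them, Ezh2cKO minus WT, was 4.04, the largest of the 8 genes, and it was not tested, since each genotype has 1 array per number. Adipoq had a difference of 3.90 on the same measure, from 0.92 in Ezh2cKO and -2.98 in WT.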

How the results depend on the processing

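Between genotypes, 0 probe sets passed under the pseudocounts, filters, scalings, no trend and an adjusted p of 0.1, and 0 to 47 when 1 array was left out (10 without WT replicate 1, 47 without WT replicate 2). Without WT replicate 1 and without WT replicate 2 limma took the spread wholly from the trend over all probe sets and none from a gene's own arrays, so calls made there are less secure: Car3 passed in both and Adipoq without WT replicate 2. The labels give the numbers no shared litter or batch, and deviations of same-numbered arrays from their group means correlated at 0.61. With the replicate block, 0 probe sets passed and the median of the members stayed at -0.76. That median lay between -0.38 without WT replicate 1 and -1.18 without Ezh2cKO replicate 2. Of the members' values by genotype, 95 kept direction and call, 3 passed the threshold in the same direction and 1 reversed: Cd36, which lay between -1.77 and 0.0584 when 1 array was left out. The count of members lower with no overlap was 3 to 6, and leaving out an array could not lower it. Such a step also could not reverse the genotype difference of Car3, Adipoq, Lpl or Ucp1, which had no overlap. Between numbers 6860 probe sets passed, against 2938 after quantile normalization, 16365 with a common median, 12512 at an adjusted p of 0.1, and 0 to 5353 when 1 array was left out (0 without Ezh2cKO replicate 2 or WT replicate 2); the cause was not tested. Quantile normalization moved the median of all probe sets between numbers to -0.04 and a common median to -0.38, against 0.20. The members' median by number lay between -0.75 and 0.75 when 1 array was left out, and of the members' values by number 79 kept direction and call, 6 passed the threshold in the same direction and 14 reversed, of which 2 passed in the opposite direction without Ezh2cKO replicate 1 (Car3 at -2.44 and Fabp4 at -0.56). Car3 was -0.0324 with a pseudocount of 64, -0.53 with a common median and -0.25 with its probe sets averaged, and lay between -2.44 and 2.54 with 1 array left out. Fabp4 was -0.24 with a common median, and Ucp1 was -0.14 by quantile normalization and -0.44 with a common median. With 1 array left out, Adipoq lay between -3.24 and 1.19, Fabp4 between -0.56 and 1.26, Lpl between -0.56 and 0.10, Cd36 between -0.0259 and 1.78, Pparg between -1.11 and 0.32 and Ucp1 between -0.0157 and 0.32. The filter to the brighter 60% of probe sets removed Cidec and Ucp1, and the filter to the brighter 40% also removed Pparg. Low signals, 2 arrays per genotype and unused detection calls limit what can be said of the dim genes.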
